A study of Mus musculus with 7 samples.

Results

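Prostaglandin synthesis, breakdown and reception are described here through 10 genes. They are the cyclooxygenases Ptgs1 and Ptgs2, the terminal synthases Ptges, Hpgds and Tbxas1, the prostaglandin-degrading enzyme Hpgd, and the receptors Ptger2, Ptger4, Ptgir and Ptgfr. The members were named as a list and looked up by symbol. That list was chosen with earlier results of these data known. All 10 were found among the 23337 genes of each library. All 10 also passed the filter of a mean of at least 1 TPM (the unit is explained below) over the 7 libraries, which 11096 genes passed. Ptgfr passed it through the 2 WT LPS libraries alone.

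The cells were macrophages grown in culture from the bone marrow of male mice 6 to 8 weeks old, with 7 days of the growth factor M-CSF at 25 ng/ml. KO cells came from Tgm2 knockout mice, which lack the protein-crosslinking enzyme transglutaminase 2. How the allele was made is not given in the sources used here. WT cells came from wild-type mice. RNA sequencing covered KO LPS (n = 2), WT LPS (n = 2), KO M0 (n = 1) and WT M0 (n = 2), where LPS is bacterial lipopolysaccharide at 10 ng/ml for 6 hours after the M-CSF culture and M0 is M-CSF culture with no LPS.

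Prostanoids are lipid mediators made from arachidonic acid that is released from membranes. The constitutive cyclooxygenase Ptgs1 and the inducible cyclooxygenase Ptgs2 turn it into prostaglandin H2, which a terminal synthase then converts. Ptges makes prostaglandin E2, Hpgds makes prostaglandin D2 and Tbxas1 makes thromboxane A2. Hpgd inactivates prostaglandins by oxidising their hydroxyl group at carbon 15. Ptger2 and Ptger4 bind prostaglandin E2 and Ptgir binds prostacyclin, and these receptors couple to Gs and raise cyclic AMP. Ptgfr binds prostaglandin F2 alpha and couples to Gq. Macrophages exposed to LPS are a known source of prostaglandin E2, for which Ptgs2 and Ptges are the inducible enzymes.

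The promoters of 4 members are shown because these genes carried the largest changes described below: Ptgs2 and Ptges, which rose under LPS, Hpgd, which fell, and Ptgfr, which was detected in a single group. Each line gives the 250 bases before the gene start, 5′ to 3′ on the gene's strand, from the RefSeq promoter table of GRCm38.p6, in which 10 of 10 members were matched. They lie at chr1:150099781-150100030 on the plus strand for Ptgs2, chr2:30903298-30903547 on the minus strand for Ptges, chr8:56294302-56294551 on the plus strand for Hpgd and chr3:151837529-151837778 on the minus strand for Ptgfr. The Ptges start in that table lies inside the annotated gene, which spans chr2:30889471-30931020. The starts of Ptgs1, Hpgds and Tbxas1 also lie inside theirs, and which start these cells used is not known. Capitals mark every match to 1 of 9 short motifs searched on both strands.
Ptgs2: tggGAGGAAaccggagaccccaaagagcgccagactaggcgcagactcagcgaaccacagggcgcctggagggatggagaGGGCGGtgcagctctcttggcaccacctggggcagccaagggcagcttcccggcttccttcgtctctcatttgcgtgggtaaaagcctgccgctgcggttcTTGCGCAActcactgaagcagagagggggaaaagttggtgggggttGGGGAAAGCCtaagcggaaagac
Ptges: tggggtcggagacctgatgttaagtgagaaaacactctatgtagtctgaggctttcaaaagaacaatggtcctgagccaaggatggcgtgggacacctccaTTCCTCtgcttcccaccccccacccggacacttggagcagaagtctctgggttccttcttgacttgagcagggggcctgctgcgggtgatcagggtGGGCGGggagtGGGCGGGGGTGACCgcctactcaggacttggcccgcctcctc
Hpgd: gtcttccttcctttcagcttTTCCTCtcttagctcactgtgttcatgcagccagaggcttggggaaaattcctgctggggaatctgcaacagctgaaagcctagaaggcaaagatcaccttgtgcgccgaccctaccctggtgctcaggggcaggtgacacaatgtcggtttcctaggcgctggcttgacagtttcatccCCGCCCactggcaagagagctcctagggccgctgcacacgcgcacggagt
Ptgfr: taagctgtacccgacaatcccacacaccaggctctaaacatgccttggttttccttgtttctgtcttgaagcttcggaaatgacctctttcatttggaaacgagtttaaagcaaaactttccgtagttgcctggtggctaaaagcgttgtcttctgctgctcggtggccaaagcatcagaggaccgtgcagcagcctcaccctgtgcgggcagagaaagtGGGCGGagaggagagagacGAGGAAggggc
In Ptgs2 the capitals are, from the left, an ETS core (GAGGAA), a GC box (GGGCGG), a C/EBP motif (TTGCNNAA) and an NF-kappaB motif (GGGNNNNNCC), where N is any base. In Ptges they are an ETS core read on the other strand, a GC box, and a GC box that overlaps an NF-kappaB match. In Hpgd they are an ETS core and a GC box, both read on the other strand, and in Ptgfr a GC box and an ETS core.

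These motifs are common in mouse promoters. Of 32851 promoters in the table, the same window held the NF-kappaB motif in 45.8%, the GC box in 32.7%, the ETS core in 23.3% and the C/EBP motif in 9.56%. Among the 10 members the NF-kappaB motif was in 4 (Ptgs2, Ptges, Ptger4 and Ptgir), the GC box in 6, the ETS core in 8 and the C/EBP motif in 2 (Ptgs2 and Hpgds). The Hpgds window, like that of Ptges, precedes a start inside the annotated gene. The AP-1 motif (TGANTCA) and the TATA box (TATAAA) were each in Tbxas1 alone, in the window before a start that lies inside the annotated gene, against 6.75% and 12.4% of promoters. The CRE core (TGACG), the E-box (CACGTG) and the interferon-response motif (GAAANNGAAA) were in none of the 10, against 17.8%, 6.02% and 2.98% of promoters. With the window drawn on to 50 bases after the start, Ptgs2 also held a CRE core at bases 14 to 18 and an overlapping E-box at bases 17 to 22, counted from the first transcribed base. A match describes letters only, and these data do not measure binding.

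Values are TPM, reads per transcript length brought to the same total in every library, so levels can be compared between genes. The depth of sequencing is unknown because TPM do not carry it. In bulk RNA, fewer cells of a type and less RNA per cell cannot be told apart. The labels do not state that replicates are different animals or cultures, and the p-values therefore reflect only the spread among these libraries, possibly a technical one. For KO M0, with its single library, the spread of the other groups was taken. Fold changes are differences on the log2(TPM + 1) scale, which understates the change of low genes, and a gene is called where limma's adjusted p is under 0.05.

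The libraries fitted their genotype labels, but both WT LPS libraries held Xist against their male label, beside transcripts of the Y chromosome. Tgm2 stood at 19.4 and 19.2 TPM in KO LPS, against 233 and 199 in WT LPS, 50.7 in KO M0 and 433 and 368 in WT M0, so every KO library was below every WT library. Xist, the RNA of X inactivation, was listed at 0 in both KO LPS libraries and reached 47.2 and 55.4 TPM in WT LPS, while the other 3 libraries were listed at 0 or at 0.00535 TPM, although all are labelled male. Transcripts of Ddx3y, Eif2s3y, Kdm5d and Uty from the Y chromosome were higher in KO LPS than in WT LPS. Their log2 fold changes were 0.90 to 1.07, with limma adjusted p of 0.0049 to 0.042. All 4 were still detected in WT LPS. Kdm5d, the lowest, stood there at 3.42 and 5.002 TPM, against 8.75 and 9.64 in KO LPS. Eif2s3y, the highest, stood at 32.8 and 37.2 TPM, against 67.8 and 68.0. Every comparison with the WT LPS libraries carries this difference, and its part in the results below was not tested. KO LPS vs KO M0 does not compare those libraries.

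All 12 macrophage markers were detected, at a summed 44061 and 45332 TPM in the KO LPS libraries, 42926 and 46396 in WT LPS, 54408 in KO M0 and 51665 to 57659 in WT M0. Markers of other cell types were summed in the same way. Mast cell and basophil markers summed to 22.2 and 23.9 TPM in KO LPS, against 15.1 and 21.7 in WT LPS, 2.79 in KO M0 and 1.46 and 3.34 in WT M0, with 8 of 13, including Fcer1a, Ms4a2 and Mcpt8, listed at 0 throughout. Of the 13, 11 stayed under 1 TPM in all libraries. Hdc was the only tested one, with LPS log2 fold changes of 3.38 in knockout and 3.22 in wild-type cells. Eosinophil markers summed to 2.40 and 2.70 TPM in KO LPS, against 7.58 and 7.46 in WT LPS, 13.6 in KO M0 and 10.8 and 14.2 in WT M0, most of it Ccr3, with Prg2, Prg3, Ear1 and Ear6 at 0. Dendritic cell markers summed to 5.58 and 5.97 TPM in KO LPS, against 2.12 and 2.99 in WT LPS, 4.59 in KO M0 and 2.69 and 3.21 in WT M0. Megakaryocyte and platelet markers summed to 11.1 to 12.4 TPM in the LPS libraries and 19.4 to 20.9 in the M0 libraries, and lymphocyte markers to 1.496 to 3.001 and 13.5 to 16.5. Stromal and endothelial markers summed to 78.6 and 80.7 TPM in the KO LPS libraries, 48.0 and 52.0 in WT LPS, 45.1 in KO M0 and 54.8 and 69.1 in WT M0. Neutrophil markers summed to 354 and 405 TPM in KO LPS, against 486 and 607 in WT LPS, 126 in KO M0 and 114 and 126 in WT M0, with Retnlg and Cxcr2 at 0. All 4 tested ones (S100a8, Mmp8, Camp and Csf3r) were called higher under LPS in both genotypes. Of all genes, 13.8% were called higher in knockout and 15.0% in wild-type cells. In KO LPS vs WT LPS 1 of the 4 was called lower, against 2.58% of all genes. Ccr3, the only tested eosinophil marker, was called lower too (log2 fold change -1.47). Of the stromal and endothelial markers, 3 of 7 tested were called higher, against 4.59% of all genes. No marker of the other lists was called between these groups. The part of these sums in the results was not tested.

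LPS changed most of the set in both genotypes. In knockout cells 3 members rose (Ptgs2, Ptges and Ptgir) and 6 fell (Ptgs1, Hpgds, Tbxas1, Hpgd, Ptger2 and Ptger4), so 9 of 10 were called, against 38.1% of all tested genes. In wild-type cells 4 rose (Ptgs2, Ptges, Ptgir and Ptgfr) and 5 fell (Ptgs1, Hpgds, Tbxas1, Hpgd and Ptger4), again 9 of 10, against 44.6% of all genes. By direction, 13.8% of all genes rose and 24.3% fell in knockout cells, and 15.0% rose and 29.6% fell in wild-type cells. The median log2 fold change of the members was -0.94 in knockout and -0.72 in wild-type cells, beside -0.24 and -0.21 over all genes tested. The LPS and M0 libraries did not overlap for 9 members in knockout cells, where this held for 87.7% of all genes, and for all 10 in wild-type cells, where it held for 73.5%. Ptgfr is among the tested genes only through its WT LPS level, and without it 8 of 9 members were called in wild-type cells. Scaling the libraries by median ratios moved the median gene by 0.23 and 0.20 upward on the log2 scale, and the split of all calls became 2104 higher and 1854 lower in knockout cells, in place of 1533 and 2700, and 2416 higher and 2348 lower in wild-type cells, in place of 1665 and 3284.

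Under LPS, knockout and wild-type cells differed in 4 members. Ptgs2 was higher in KO LPS than in WT LPS, while Ptges, Ptger2 and Ptgfr were lower, so 4 of 10 were called against 7.16% of all genes (4.59% higher and 2.58% lower). Without Ptgfr it was 3 of 9. The median log2 fold change was -0.21 over the members and 0.03 over all genes. The libraries of KO LPS and WT LPS did not overlap for 8 members, where this held for 49.7% of all genes. In untreated cells no member was called and none had an unadjusted limma p under 0.05, which 154 of all genes had, with log2 fold changes of -0.33 to 0.25. The single gene called in KO M0 vs WT M0 was Tgm2, which is 0.00901% of genes. KO M0 lay outside the WT M0 range for 5 members, where this held for 60.3% of all genes. In the test of the difference between the LPS changes of knockout and wild type, 1 member (Ptgfr) was called, against 1.37% of genes, and without Ptgfr it was 0 of 9, with Ptgs2 and Ptges among those that missed the threshold. Calls over all genes in KO LPS vs WT LPS numbered 795, and fewer when any 1 LPS or WT M0 library was left out. With the KO LPS and WT LPS libraries fitted alone they numbered 591.

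**Figure D1:**
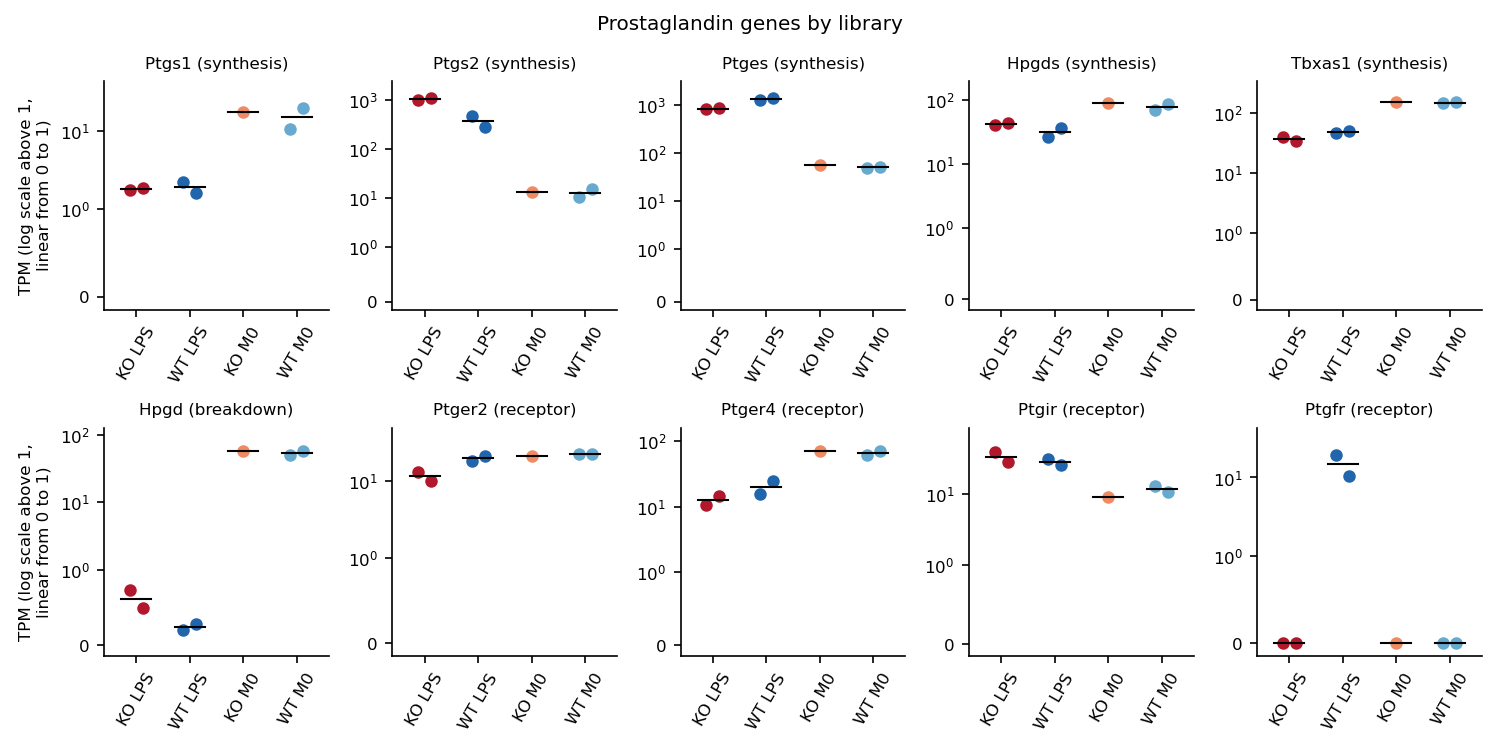
TPM of each of the 10 genes (vertical axis, log scale above 1 and linear from 0 to 1) in each library of KO LPS, WT LPS, KO M0 and WT M0, with points for libraries and a bar for the group mean. Ptgs2 stands at 974 and 1077 TPM in KO LPS against 466 and 284 in WT LPS, and Ptgfr is above 0 only in WT LPS.

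Ptgs2 was the member with the largest LPS rise in knockout cells and differed between genotypes under LPS. It is on chromosome 1 (GRCm38.p6, chr1:150100031-150108234, protein-coding). Its level was 974 and 1077 TPM in the KO LPS libraries, 466 and 284 in WT LPS, 13.5 in KO M0 and 10.4 and 15.2 in WT M0. Both KO LPS libraries were above both WT LPS libraries, all 4 were far above the M0 libraries, and KO M0 lay inside the WT M0 range. LPS raised it by a log2 fold change of 6.14 (SE 0.30, adjusted p 3.5e-07) in knockout and 4.75 (SE 0.24, adjusted p 2.4e-07) in wild-type cells. KO LPS was higher than WT LPS by 1.49 (SE 0.24, adjusted p 0.0044), a ratio of mean TPM of 2.73. Without WT LPS replicate 1, the higher of that pair, this became 1.85, and without WT LPS replicate 2 it became 1.13, both called. With no filter on low values, where both the estimate of the spread and the adjustment take in more genes, the adjusted p was 0.10. The difference between the LPS changes was 1.39 (SE 0.38, adjusted p 0.15), which did not pass, and without WT LPS replicate 1 it was 1.75 with an adjusted p of 0.049.

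Ptgs1, the constitutive cyclooxygenase, moved the other way and did not pass the test between genotypes. It stood at 1.73 and 1.88 TPM in KO LPS, against 2.23 and 1.59 in WT LPS, 17.0 in KO M0 and 10.4 and 19.1 in WT M0. The LPS libraries were all below the M0 libraries, and the genotypes overlapped under both conditions. LPS lowered it by a log2 fold change of -2.68 (SE 0.33, adjusted p 0.00014) in knockout and -2.39 (SE 0.27, adjusted p 5.7e-05) in wild-type cells, while KO LPS vs WT LPS gave -0.05 (SE 0.27, adjusted p 0.96). Of the summed TPM of both cyclooxygenases, Ptgs2 made up 99.8% in each KO LPS library, 99.5% and 99.4% in WT LPS, 44.3% in KO M0 and 49.9% and 44.3% in WT M0. The ratio of Ptgs2 to Ptgs1 TPM was 561 and 573 in KO LPS, 209 and 178 in WT LPS, 0.797 in KO M0 and 0.997 and 0.795 in WT M0.

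Ptges, the inducible prostaglandin E synthase, rose in both genotypes and was lower in KO LPS than in WT LPS. It lies on chromosome 2 (GRCm38.p6, protein-coding). Its level was 814 and 858 TPM in the KO LPS libraries, 1312 and 1419 in WT LPS, 55.0 in KO M0 and 49.7 and 50.4 in WT M0. The order was WT LPS, KO LPS and then the M0 groups, and no library of KO LPS overlapped WT LPS. LPS raised it by 3.90 (SE 0.18, adjusted p 2.3e-07) in knockout and 4.74 (SE 0.14, adjusted p 9.4e-09) in wild-type cells on the log2 scale. KO LPS vs WT LPS gave -0.71 (SE 0.14, adjusted p 0.015), a ratio of mean TPM of 0.612. This call ended when any LPS library was left out: adjusted p was 0.067 and 0.052 without KO LPS replicate 1 or 2, and 0.067 and 0.16 without WT LPS replicate 1 or 2, with fold changes of -0.76 to -0.65. The difference between the LPS changes was -0.84 (SE 0.23, adjusted p 0.14).

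The inducible pair thus differed between genotypes in opposite directions. Ptges TPM divided by Ptgs2 TPM was 0.836 and 0.797 in KO LPS, 2.82 and 4.99 in WT LPS, 4.06 in KO M0 and 4.78 and 3.32 in WT M0. Both KO LPS libraries had more Ptgs2 than Ptges, and the other 5 libraries had more Ptges than Ptgs2.

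**Figure D2:**
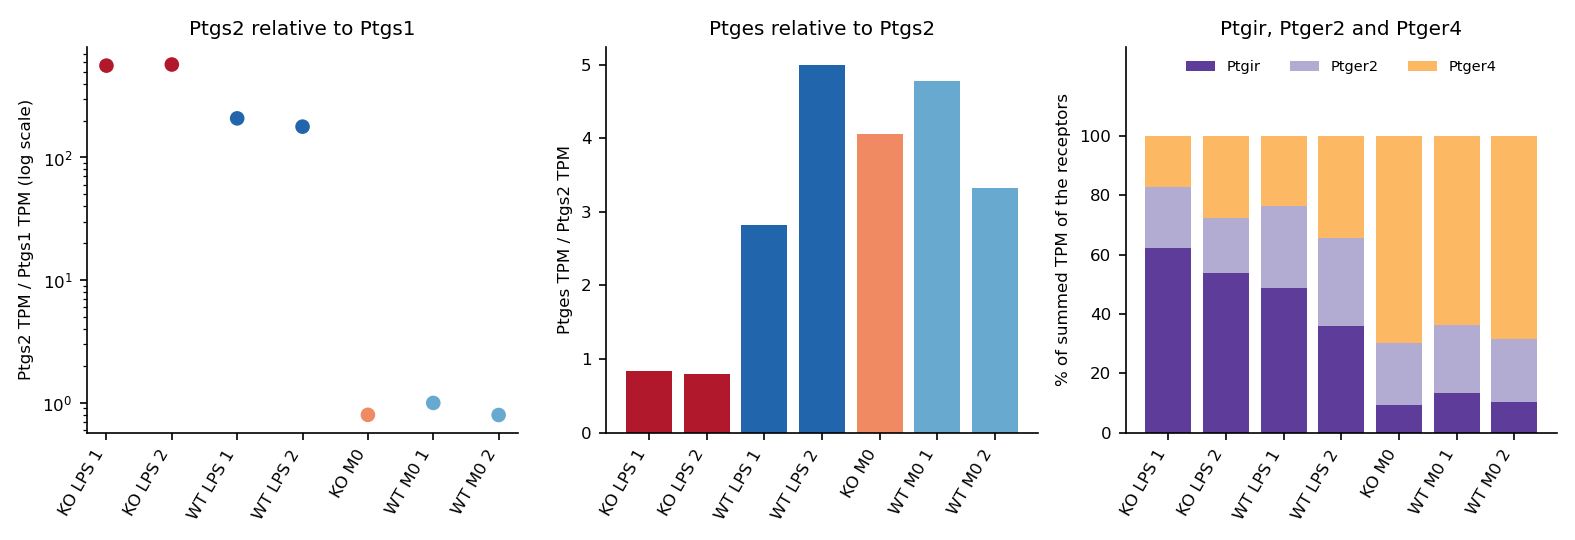
Ratio of Ptgs2 to Ptgs1 TPM (left, log scale), ratio of Ptges to Ptgs2 TPM (middle) and shares of Ptgir, Ptger2 and Ptger4 in their summed TPM (right, %), each for the 7 libraries of KO LPS, WT LPS, KO M0 and WT M0. The Ptges to Ptgs2 ratio is 0.836 and 0.797 in KO LPS and 2.82 to 4.99 in the other 5 libraries, and the Ptgir share is higher in the LPS than in the M0 libraries.

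The synthases of prostaglandin D2 and thromboxane fell under LPS and did not pass the test between genotypes. Tbxas1 (chr6:38864159-39084590) stood at 40.0 and 34.7 TPM in KO LPS, against 47.4 and 49.99 in WT LPS, 153 in KO M0 and 146 and 153 in WT M0. Each LPS library was below each M0 library, and both KO LPS libraries were below both WT LPS libraries. LPS lowered it, with log2 fold changes of -2.01 (SE 0.19, adjusted p 2.1e-05) in knockout and -1.59 (SE 0.16, adjusted p 1.8e-05) in wild-type cells, and KO LPS vs WT LPS gave -0.38 (SE 0.16, adjusted p 0.21). Hpgds (chr6:65117293-65144981) stood at 40.2 and 43.3 TPM in the KO LPS libraries, 26.4 and 36.0 in WT LPS, 87.6 in KO M0 and 68.1 and 85.6 in WT M0. It was lower in every LPS library than in every M0 library, and the genotypes did not overlap. LPS lowered it, with log2 fold changes of -1.05 (SE 0.24, adjusted p 0.0059) in knockout and -1.28 (SE 0.19, adjusted p 0.00041) in wild-type cells, and KO LPS vs WT LPS gave 0.42 (SE 0.19, adjusted p 0.26). As a ratio, Ptges to Tbxas1 TPM was 20.4 and 24.8 in KO LPS, 27.7 and 28.4 in WT LPS, 0.360 in KO M0 and 0.341 and 0.331 in WT M0, so the order of these synthases was reversed between LPS and M0 libraries.

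Hpgd, the degrading enzyme, had the largest LPS fall of the members. It is on chromosome 8 (GRCm38.p6, chr8:56294552-56321046, protein-coding), and no exon of another gene overlaps it in GENCODE M21. Its level was 0.735 and 0.488 TPM in KO LPS, against 0.201 and 0.280 in WT LPS, 56.7 in KO M0 and 49.5 and 57.3 in WT M0. All LPS libraries were under 1 TPM, KO LPS was above WT LPS without overlap, and KO M0 lay inside the WT M0 range. LPS lowered it, with log2 fold changes of -5.17 (SE 0.25, adjusted p 3.3e-07) in knockout and -5.45 (SE 0.20, adjusted p 3.0e-08) in wild-type cells. In mean TPM, M0 exceeded LPS 92.8-fold in knockout and 222-fold in wild-type cells. KO LPS vs WT LPS gave 0.37 (SE 0.20, adjusted p 0.35) and the difference between the LPS changes 0.29 (SE 0.32, adjusted p 0.84).

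**Figure D3:**
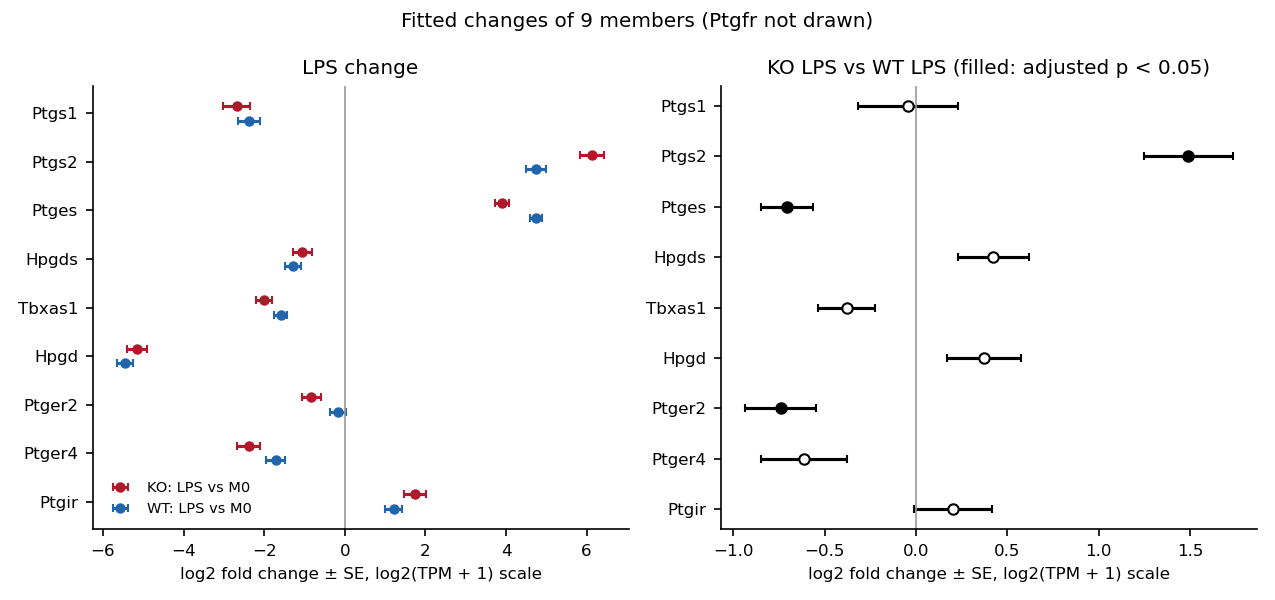
Fitted log2 fold changes ± SE on the log2(TPM + 1) scale for 9 of the genes (Ptgfr is not drawn because 3 of its 4 groups are listed at 0): LPS vs M0 in KO and WT cells (left) and KO LPS vs WT LPS (right, filled where the adjusted p is under 0.05). Ptgs2 and Ptges lie furthest right and Hpgd furthest left among the LPS changes, and Ptgs2 at 1.49 is the member highest above 0 on the right.

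The Gs-coupled receptors changed their proportions under LPS. Ptgir, the prostacyclin receptor (chr7:16906490-16910905), stood at 38.8 and 28.1 TPM in the KO LPS libraries, 31.7 and 25.6 in WT LPS, 9.17 in KO M0 and 13.0 and 10.6 in WT M0. LPS libraries were all above M0 libraries, and the genotypes overlapped under LPS. LPS raised it by 1.74 (SE 0.26, adjusted p 0.00047) in knockout and 1.21 (SE 0.21, adjusted p 0.0011) in wild-type cells, and KO LPS vs WT LPS gave 0.20 (SE 0.21, adjusted p 0.68).

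Ptger4, the prostaglandin E receptor EP4 (chr15:5233399-5244187), stood at 10.7 and 14.4 TPM in KO LPS, against 15.5 and 24.5 in WT LPS, 69.0 in KO M0 and 61.4 and 71.2 in WT M0. It was lower in every LPS library than in every M0 library. LPS lowered it, with log2 fold changes of -2.38 (SE 0.29, adjusted p 0.0001) in knockout and -1.71 (SE 0.23, adjusted p 0.0002) in wild-type cells. KO LPS vs WT LPS gave -0.61 (SE 0.23, adjusted p 0.17), and 0.042 was the adjusted p with the replicate number as a block. In GENCODE M21, 15.3% of its exon bases are shared with the pseudogene Gm15937 on the other strand. Whether reads were assigned by strand is not given in the sources used here. Smaller parts are shared with genes on the other strand by Ptger2 (4.74% and 2.77%), Ptgs1 (3.81%) and Tbxas1 (1.58%).

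Ptger2, the receptor EP2 (chr14:44988111-45003820), was the member whose LPS change passed the test in knockout cells but not in wild-type cells. Its level was 13.0 and 9.84 TPM in the KO LPS libraries, 18.0 and 21.2 in WT LPS, 20.9 in KO M0 and 22.0 in each WT M0 library. KO LPS was below the other 5 libraries, which lay within 18.0 to 22.0 TPM. LPS lowered it, with log2 fold changes of -0.83 (SE 0.24, adjusted p 0.020) in knockout cells, against -0.16 (SE 0.19, adjusted p 0.52) in wild-type cells, and the difference between these changes, -0.66 (SE 0.31, adjusted p 0.49), did not pass. The knockout LPS call ended with median-ratio scaling (-0.59, adjusted p 0.060), with no filter on low values (0.0505), without KO LPS replicate 2 (0.10) and in KO LPS and KO M0 fitted alone (0.052). KO LPS vs WT LPS gave -0.74 (SE 0.19, adjusted p 0.048). That call ended without KO LPS replicate 1 or 2 (adjusted p 0.055 and 0.30), without WT LPS replicate 1 or 2 (0.083 and 0.28) and without either WT M0 library (0.088 and 0.087). With all libraries it ended at a pseudocount of 0.1 (0.0502), with no filter (0.14) and in the LPS groups fitted alone (0.091).

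Summed over Ptger2, Ptger4 and Ptgir, the Gs-coupled receptor level was 62.5 and 52.3 TPM in KO LPS, against 65.3 and 71.3 in WT LPS, 99.0 in KO M0 and 96.4 and 104 in WT M0. The LPS libraries were all below the M0 libraries. Ptgir made up 62.1% and 53.7% of the sum in KO LPS, 48.7% and 35.9% in WT LPS, 9.26% in KO M0 and 13.5% and 10.3% in WT M0. Ptger4 made up 17.1% and 27.5% in KO LPS, 23.8% and 34.3% in WT LPS, 69.7% in KO M0 and 63.7% and 68.6% in WT M0. Ptgir was thus the most abundant of the 3 in all LPS libraries and Ptger4 in all M0 libraries.

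Ptgfr, the prostaglandin F receptor, was detected in a single group. It is on chromosome 3 (GRCm38.p6, chr3:151798610-151837528, protein-coding). In GENCODE M21, 4.85% of its exon bases are shared with Gm43618 on the other strand. Whether reads were assigned by strand is not given in the sources used here. Ptgfr was listed at 0 in both KO LPS libraries and reached 19.4 and 10.4 TPM in WT LPS. KO M0 and both WT M0 libraries were listed at 0. Both WT LPS libraries were above all others. Ptgfr entered the tested genes through that same WT LPS level, so the p-values that follow describe the fit and are not independent of the filter. The limma adjusted p was 7.6e-05 for KO LPS vs WT LPS, 2.3e-06 for WT LPS vs WT M0 and 0.0050 for the difference between the LPS changes, and no fold is given against groups listed at 0. With low genes not filtered out, they were 0.019, 0.0016 and 0.11. The last call ended there and when WT M0 replicate 1 was left out (0.071). Ptgfr was above 0 in the same libraries that hold Xist, and a difference of genotype, of LPS response and of those libraries cannot be told apart for it.

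The nearest genes to Ptgfr in the files did not share this pattern. On the lower side, Ifi44l was listed at 0 throughout, and Ifi44, an interferon-stimulated gene 48700 bp away, stood at 172 and 252 TPM in the KO LPS libraries, 242 and 167 in WT LPS, 7.13 in KO M0 and 4.01 and 4.36 in WT M0, with the genotypes overlapping under LPS. On the upper side, Dnajb4, a chaperone of the Hsp40 family, stood at 13.3 and 13.5 TPM in KO LPS, against 16.7 and 18.0 in WT LPS, 54.0 in KO M0 and 47.4 and 54.9 in WT M0, the LPS libraries being the lower ones. Fubp1, a nucleic acid-binding protein, ranged over 13.6 to 18.6 TPM and Gipc2 over 0.135 to 0.835 TPM. Adgrl4 and Nexn stayed at or under 0.303 and 0.381 TPM, and Mir3963 was listed at 0.

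Genes with the most similar patterns were sought by the root mean square difference of centred log2(TPM + 1) over the 7 libraries. Smaller is more alike. Only genes that passed the filter were ranked, and predicted or unnamed gene models, small RNA genes and pseudogenes were left out. For Ptgs2 they were Slfn4, a Schlafen family member (0.234), the interferon-inducible GTPase Iigp1 (0.321), endothelin Edn1 (0.371), the Isg15 protease Usp18 (0.374) and the pentraxin Ptx3 (0.377). For Ptges they were lysyl oxidase Lox (0.095), the cystine transporter Slc7a11 (0.116), coagulation factor F10 (0.165), Tarm1 (0.168) and Ifi205 (0.258). For Hpgd they were Eps8 (0.151), the lectin Clec10a (0.279), the sialyltransferase St6gal1 (0.308), Arhgap18 (0.313) and lamin Lmna (0.321). Slfn4, for example, stood at 214 and 257 TPM in the KO LPS libraries, 140 and 65.1 in WT LPS, 2.86 in KO M0 and 2.11 and 1.85 in WT M0, above WT LPS in both KO LPS libraries as Ptgs2 was. The gene closest to Ptgfr was further off, Pydc3 at 0.693, with 0.412 and 0.147 TPM in KO LPS, against 61.0 and 35.2 in WT LPS, 1.56 in KO M0 and 0 and 0.0379 in WT M0. The next were Cyp51 (0.732), Cyp1b1 (0.757), Sc5d (0.759) and Fdft1 (0.773), of which Cyp51, Sc5d and Fdft1 are enzymes of cholesterol synthesis.

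Upstream of the cyclooxygenases, genes of arachidonate release and supply moved in both directions under LPS. Of 31 such genes in the files 21 were tested, of which 6 rose and 9 fell in knockout cells, against 13.8% and 24.3% of all genes, and 7 rose and 7 fell in wild-type cells, against 15.0% and 29.6%. Pla2g4a, the cytosolic phospholipase A2 that releases arachidonate, stood at 98.98 and 103 TPM in the KO LPS libraries, 110 and 106 in WT LPS, 13.3 in KO M0 and 12.3 and 15.8 in WT M0. It rose by 2.83 (SE 0.21) in knockout and 2.86 (SE 0.17) in wild-type cells, and KO LPS vs WT LPS gave -0.09 (adjusted p 0.85). Acsl1, an acyl-CoA synthetase, rose by 3.58 and 3.99, and Lpcat2, which puts fatty acids back into phospholipids, by 1.96 and 2.07. Daglb, a diacylglycerol lipase, fell (-3.71 in knockout and -3.26 in wild-type cells), as did the lysosomal phospholipase Pla2g15 (-2.71 and -2.20).

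Between KO LPS and WT LPS, 1 supply gene was higher and 3 were lower, against 4.59% and 2.58% of all genes, with a list median of -0.23 against 0.03 over all genes. Over the 14 alternatives 0 to 4 of the list were called. Acsl3, another acyl-CoA synthetase, stood at 3.90 and 5.32 TPM in KO LPS, against 14.5 and 17.6 in WT LPS, 11.5 in KO M0 and 8.85 and 11.8 in WT M0. It was lower in KO LPS (log2 fold change -1.61, SE 0.22, adjusted p 0.0016), and its LPS changes differed by -1.76 (adjusted p 0.044). The fatty acid desaturase Fads2 (-1.28, adjusted p 0.0076) and Pla2g7, the platelet-activating factor acetylhydrolase (-0.68, adjusted p 0.034), were lower and the phospholipase Pla2g16 was higher (1.15, adjusted p 0.013). Without KO LPS replicate 2 the adjusted p of Fads2 was 0.068 and of Pla2g16 0.12, and without WT LPS replicate 2 they were 0.065 and 0.097. The call of Pla2g7 ended without any 1 of the 4 LPS libraries (0.0504 to 0.25).

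The other genes of prostanoid synthesis, transport and breakdown included 14 tested of 19 in the files. Of these, 3 rose and 6 fell under LPS in knockout cells, against 13.8% and 24.3% of all genes. In wild-type cells 5 rose and 5 fell, against 15.0% and 29.6%, 1 of the 10 (Akr1b8) with an adjusted p of 0.049. The transporters Slco3a1 (3.12 in knockout and 2.64 in wild-type cells) and Abcc4, which exports prostaglandins (1.63 and 1.70), rose in both. The other prostaglandin E synthases changed less than Ptges: Ptges2 rose by 1.15 (adjusted p 0.0023) in knockout cells, with 0.43 (adjusted p 0.078) in wild-type cells, and Ptges3 gave 0.11 (adjusted p 0.70) and 0.54 (adjusted p 0.022). Ptgds, the lipocalin-type prostaglandin D synthase, was listed at 0 in all libraries.

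Between KO LPS and WT LPS, 1 of these 14 genes was higher and 3 were lower, against 4.59% and 2.58% of all genes, with a median of 0.01, beside 0.03 over all genes. The genes called were Ptgr1, Akr1b8, Cbr2 and Cbr3, and the other 10 did not pass. Ptgr1, a prostaglandin reductase that acts in the breakdown chain after Hpgd, stood at 41.9 and 35.0 TPM in the KO LPS libraries, 90.0 and 88.3 in WT LPS, 26.7 in KO M0 and 31.9 and 28.4 in WT M0, and was lower in KO LPS (log2 fold change -1.20, SE 0.17, adjusted p 0.0018). The aldo-keto reductase Akr1b8 stood at 45.3 and 44.6 TPM in KO LPS, against 114 and 111 in WT LPS, 136 in KO M0 and 157 and 142 in WT M0, and was lower too (log2 fold change -1.31, SE 0.15, adjusted p 0.00054). Neither call ended under any of 14 alternatives. The carbonyl reductase Cbr2 was higher (1.07, adjusted p 0.0096), but not without KO LPS replicate 2 (0.052) or WT LPS replicate 1 (0.068), and Cbr3 was lower (-0.70, adjusted p 0.040), but not without any 1 of the WT M0 or LPS libraries (0.059 to 0.25).

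The remaining prostanoid receptors were few. Of 7 in the files 3 were tested, Ptgdr and Tbxa2r were listed at 0 in all libraries, and Ptger3 and Ptgdr2 stayed under the filter. Pparg, a nuclear receptor that binds a prostaglandin D2 metabolite, stood at 0.151 and 0 TPM in the KO LPS libraries, 0.671 and 2.04 in WT LPS, 33.4 in KO M0 and 27.3 and 38.7 in WT M0. It fell under LPS, with log2 fold changes of -5.001 (SE 0.36) in knockout and -3.90 (SE 0.30) in wild-type cells, and KO LPS vs WT LPS gave -1.07 (adjusted p 0.057), which passed at a pseudocount of 0.1 (0.010), without WT LPS replicate 1 (0.012) and with the replicate block (0.039). Ppard, its relative, rose by 1.60 and 1.63. The level of Ptger1, the third tested gene of the list, is not reported here.

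The leukotriene and lipoxygenase branch, which uses the same arachidonate, had 15 tested genes of 27 in the files. Under LPS 3 rose and 7 fell in knockout cells, against 13.8% and 24.3% of all genes, and 4 rose and 8 fell in wild-type cells, against 15.0% and 29.6%. Fpr2, a receptor of formyl peptides and lipoxin A4, rose by 5.04 and 5.51, and Gpr18 by 3.31 and 2.81, while Cyp4f18, which inactivates leukotriene B4, fell (-3.30 and -2.57). Between KO LPS and WT LPS, 3 were higher and 1 was lower, against 4.59% and 2.58% of all genes. Ltc4s, leukotriene C4 synthase, stood at 16.1 and 17.0 TPM in KO LPS, against 5.46 and 8.35 in WT LPS, 19.96 in KO M0 and 17.4 and 21.1 in WT M0, a difference of 1.17 (SE 0.22, adjusted p 0.0089) between KO LPS and WT LPS. Mgst3, a microsomal glutathione transferase, was higher by 1.33 (SE 0.21, adjusted p 0.0033), Alox5, which starts leukotriene synthesis, by 0.96 (adjusted p 0.032), and the dipeptidase Dpep2 was lower (-0.98, adjusted p 0.0055). The call of Ltc4s ended without KO LPS replicate 2 (0.065) or WT LPS replicate 1 (0.058), that of Dpep2 without WT LPS replicate 1 (0.056) and that of Alox5 without any 1 of the WT M0 or LPS libraries (0.056 to 0.17).

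**Figure D4:**
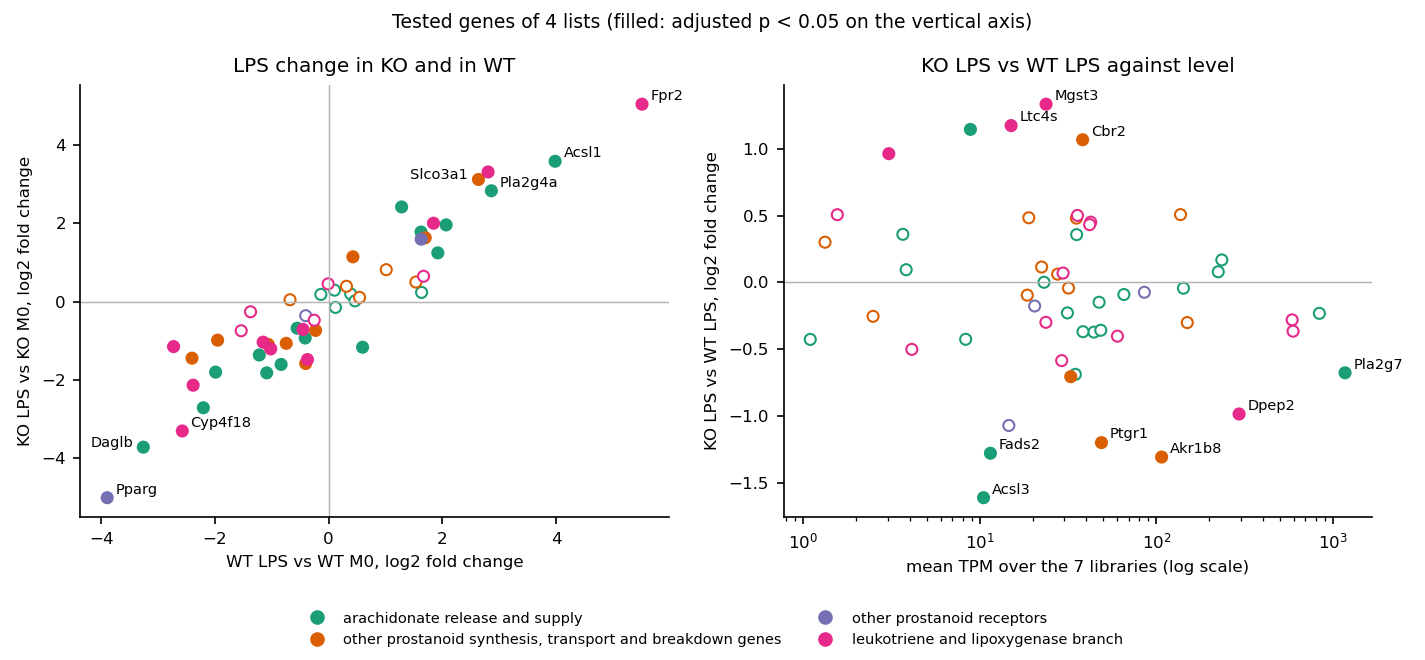
Log2 fold changes of the tested genes of 4 lists: LPS change in KO cells (vertical) against that in WT cells (horizontal) on the left, and KO LPS vs WT LPS (vertical) against the mean TPM over the 7 libraries (horizontal, log scale) on the right, coloured by list and filled where the adjusted p of the vertical axis is under 0.05. Acsl1, Pla2g4a and Fpr2 lie high on both axes at the left, and Mgst3, Ltc4s and Cbr2 lie above 0 and Acsl3, Akr1b8 and Ptgr1 below 0 at the right.

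Genes that respond to cyclic AMP, the messenger of Ptger2, Ptger4 and Ptgir, were lower more often than higher under LPS, as all genes were. Of 40 tested, 3 rose and 19 fell in knockout cells, against 13.8% and 24.3% of all genes, and 3 rose and 19 fell in wild-type cells, against 15.0% and 29.6%. The medians were -0.59 and -0.58, beside -0.24 and -0.21 over all genes. With median-ratio scaling, under which more of all genes were called higher than lower, 4 rose and 15 fell in knockout cells and 4 rose and 13 fell in wild-type cells. Over the alternatives 14 to 22 of the list were called in knockout and 15 to 25 in wild-type cells. The growth factor Vegfa (-3.70 and -3.24), the G protein regulator Rgs2 (-3.90 and -2.97) and the transcription factor Crem (-2.28 and -2.00) fell in both genotypes. Between KO LPS and WT LPS 1 of 40 was called, Fos, a subunit of AP-1. It stood at 22.6 and 21.1 TPM in the KO LPS libraries, 50.7 and 63.6 in WT LPS, 228 in KO M0 and 182 and 254 in WT M0, a difference of -1.34 (SE 0.20, adjusted p 0.0024). In KO M0 vs WT M0 none of the genes of these 5 lists was called. In the difference between LPS changes 3 were, Acsl3 given above, Akr1b8 (-1.17, adjusted p 0.044) and Mgst3 (1.58, adjusted p 0.049), and these calls ended in 8, 10 and 10 of 11 alternatives. Of the 13 named list genes called in KO LPS vs WT LPS, 11 were not called with no filter on low values. Ptgr1 and Akr1b8 were the others. In that setting both the estimate of the spread and the adjustment take in more genes.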

How the data were processed

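The authors deposited TPM per gene for each library, 23337 genes in each of 7, and each library sums to 1000000. Per the submitters' processing notes the genome was mm10. Not given in the sources used here are the aligner, quantifier, annotation and strand setting. Groups follow the sample titles. The 11096 genes averaging 1 TPM or more were fitted as log2(TPM + 1) in 1 limma model (limma 3.58.1, R 4.3.3) of the 4 groups with a variance trend. The prior had 7.3 degrees of freedom beside 3 residual ones. P-values were adjusted by Benjamini-Hochberg over all tested genes for each of 5 comparisons. Groups of 2 or 1 allow no useful permutation test. Older symbols were matched through RefSeq. Promoters and coordinates are RefSeq's for GRCm38.p6 and exon overlaps GENCODE M21's. The fit was checked on simulated data, drawn independently for each library with the fit's own spread. That check held no sex difference between libraries and no gene detected in a single group, so it does not bear on those limits.

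The members and lists were chosen with earlier results of these data known. Genes named besides the members are Tgm2, Xist and 4 Y-linked genes, up to 4 of each list with the smallest p in a comparison, the 5 most similar patterns for Ptgs2, Ptges, Hpgd and Ptgfr, and the 4 nearest genes on each side of Ptgfr. Ptges3, Ptgds, Ptgdr, Tbxa2r, Ptger3 and Ptgdr2 and the marker genes fall outside this rule, chosen with their values in view. The fits were repeated with a pseudocount of 0.1, with median-ratio scaling, unfiltered, at a minimum mean TPM of 5, at an adjusted p of 0.01, with single libraries left out, on the compared groups alone, with a replicate block and, for KO LPS vs KO M0, leaving out WT LPS. Repeating them for list genes was chosen after seeing the data. Plots were made with matplotlib 3.10.9.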

Additional observations from a re-analysis of the deposited data

Results flagged for a closer look

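The LPS change of Ptgfr differed between knockout and wild-type cells by a fitted -3.93 on the log2(TPM + 1) scale (limma adjusted p 0.0050). Ptgfr was listed at 0 in both KO LPS libraries, at 19.4 and 10.4 TPM in the WT LPS pair, and at 0 in KO M0 and WT M0, so the fitted size depends on the pseudocount and became -7.16 with 0.1. It is given as a value of the fit, not as a fold.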

How the results depend on the processing

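Of 23 calls among the 50 pairs of a member and a comparison, 18 held under every alternative run (10 to 14 each). Those that ended were Ptgs2, Ptges and Ptger2 in KO LPS vs WT LPS. Ptger2 in KO LPS vs KO M0 and the Ptgfr difference between LPS changes ended too. The 18 include the Ptgfr calls in KO LPS vs WT LPS and in WT LPS vs WT M0. Ptgfr was tested only through its WT LPS level, so those calls are not independent of the filter. It drops out at a minimum mean TPM of 5. No member reversed with a call. In KO LPS vs WT LPS 4 members were called, against 2 with no filter on low values, 2 at an adjusted p of 0.01 and 2 to 4 with a library left out. For the difference between LPS changes 1 was called, against 0 with no filter, 0 at a minimum mean TPM of 5, which drops Ptgfr, and 0 to 2 with a library left out. The members called numbered 8 to 9 for either LPS comparison and 0 for KO M0 vs WT M0 in every alternative. KO LPS vs KO M0 kept 9 without both WT LPS libraries in the fit.

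The labels do not say whether same-numbered libraries share more than the number. Their deviations correlated at 0.18 for KO LPS with WT LPS and at 0.30 for KO LPS with WT M0. For WT LPS with WT M0 the correlation was 0.08. With the replicate number as a block, 5 members were called in KO LPS vs WT LPS, Ptger4 being added (adjusted p 0.042), and 1109 genes in place of 795. KO M0 carries no number, so no block could be fitted for its comparisons, and leaving it out gives them no value. Calls over all genes in KO LPS vs WT LPS were 307 with no filter and 362 at 0.01. For KO M0 vs WT M0 they were 1, and 2 at a pseudocount of 0.1, 20 with no filter, 3 without WT M0 replicate 2 and 8 in those groups alone. For the difference between LPS changes they were 152, and 92 at a pseudocount of 0.1, 10 with no filter, 28 at 0.01, 72 without KO LPS replicate 1 or 2 and 6 or 67 without WT M0 replicate 1 or 2. KO LPS vs KO M0 had 4233, and 2681 at 0.01. With 300 bases of promoter the C/EBP motif was in 3 members, the NF-kappaB motif in 5 and the TATA box in 2. The cause of these changes was not tested.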
